A study of Mus musculus with 2 samples.

Results

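Cytoplasmic ribosomal proteins (RPs) were examined in GMPs, the BM progenitors that give rise to granulocytes and monocytes. The members were the gene symbols of the form Rpl or Rps followed by a number, with an optional letter or paralog suffix, together with Rpsa, Rplp0, Rplp1 and Rplp2. Pseudogenes and the S6 kinase genes, whose symbols also begin with Rps, were left out. This gave 85 of the 24421 gene symbols measured, 52 for the large subunit and 33 for the small subunit. Of these, 82 reached a mean RPKM of 1 and entered the comparison. The other 3 were the paralogs Rpl10l, at 0 RPKM in both libraries, Rpl3l, at 0 and 0.125 RPKM, and Rpl39l, at 0 and 0.0414 RPKM.

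The study profiled GMPs by bulk RNA-Seq of total RNA to compare tumor-bearing mice with mice without tumors. One library (NTB-GMP) came from female non-tumor-bearing mice, and the other (4T1-GMP) came from female mice implanted in the mammary gland with 4T1 cells, a metastatic mouse mammary tumor line. Cells were taken straight from the BM by flow cytometry. The general sorting methods depleted lineage-positive cells and gated GMPs by CD16/32, CD150, c-Kit and Sca-1. The labels give both groups an F1 semi-syngeneic H-2b/d background, whereas the methods describe BALB/c hosts for 4T1 tumors. Neither the age nor the number of mice behind each library is given in the labels. The methods state a single age range of young adult mice for all experiments of the paper. With 1 library per group there was no replicate error, so no difference reported here was tested between conditions. All intervals are 95% Clopper-Pearson intervals on reads recovered from the RPKM. They cover counting error only, and may understate it, since PCR reads without molecular identifiers are not independent molecules.

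The ribosome of the cytoplasm is built from a large and a small subunit. Ribosomal RNAs form the core, RPs form much of the surface and the stalk, and some RPs ring the exit of the peptide tunnel. RPs are made in near-equal amounts per ribosome, and their mRNAs are among the most abundant in dividing cells. Many RP mRNAs begin with a terminal oligopyrimidine (TOP) tract, a C at the first base followed by a run of C and T, through which mTOR and LARP1 control their translation. Mutation of 1 copy of several RP genes causes Diamond-Blackfan anemia, a disease of BM failure.

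To show how RP transcripts begin, 30-base windows around RefSeq transcription starts were read from the GRCm38.p6 promoter table. The table matched 64 of the 85 members, with 76 starts. Each window holds 10 bases before the start and 20 bases from it, 5′ to 3′ on the gene's strand. Capitals mark the run of C followed by at least 4 C or T nearest the start. The first 4 are shown because their annotated start is itself the first base of such a run. They are a kinase target (Rps6), the member with the lowest ratio (Rplp2), a protein with a well-expressed paralog (Rps27), and the one with the longest run at its start (Rpl15). The last 3 are shown for the paralog comparison below.
Rps6, chr4:86857348-86857377, minus strand: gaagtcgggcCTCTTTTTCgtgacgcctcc
Rplp2, chr7:141447641-141447670, plus strand: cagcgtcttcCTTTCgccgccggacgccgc
Rps27, chr3:90213629-90213658, minus strand: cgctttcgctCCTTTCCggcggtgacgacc
Rpl15, chr14:18270967-18270996, minus strand: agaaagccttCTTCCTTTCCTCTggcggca
Rps27l, chr9:66946076-66946105, plus strand: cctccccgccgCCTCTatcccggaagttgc
Rpl22, chr4:152325716-152325745, plus strand: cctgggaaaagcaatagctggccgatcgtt
Rpl22l1, chr3:28805498-28805527, plus strand: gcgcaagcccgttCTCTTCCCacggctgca

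Among the 64 members, 13 (20.3%) had a TOP run exactly at an annotated start, 7 for the large and 6 for the small subunit. The share was 2.99% of 7988 tested genes with a promoter and 3.01% of all 27025 genes in the table. None of 68 mitochondrial RPs had one. When the run was allowed to begin within 10 bases of the start, the counts were 39 of 64 members (60.9%), 37.2% of tested genes and 45.6% of mitochondrial RPs. Of the windows shown, Rps27l and Rpl22l1 had runs that began 1 and 3 bases after the start, and Rpl22 had none at the start shown. A second RefSeq start of Rpl22 had a run beginning 7 bases after it. A match describes letters at an annotated start and does not say that the mRNA begins there in GMPs. The 13 members with a run at the start had a median log2 ratio of 0.02, with 7 above 0. For the 48 tested members without one, the median was 0.05, with 32 above 0.

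Over the whole 300-base promoter, from 250 bases before to 50 after the start, the ETS core CCGGAAG was present on either strand in 26 of 64 members (40.6%). Read on the other strand, this core holds CTTCC and can overlap a TOP run. It was present in 22.7% of tested genes, 9.93% of all genes and 36.8% of mitochondrial RPs. The YY1 core AAGATGGC was found in 9.38% of members, 6.05% of tested genes, 3.19% of all genes and 17.6% of mitochondrial RPs. For the E-box CACGTG the shares were 9.38%, 12.5%, 8.09% and 7.35% in the same order. For TATAAA they were 10.9%, 7.94%, 15.7% and 7.35%. Among the windows printed, CCGGAAG lies in that of Rps27l, in which it follows the TOP run.

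The RPKM were divided by library sizes of 10180365 for NTB-GMP and 30016263 for 4T1-GMP, a ratio of 2.95, and these divisors hold a scaling besides the read total. Tested members were covered by at least 13 to at least 21048 reads in NTB-GMP, and for only 5 of them was this lower bound under 100. Rn45s, the ribosomal RNA precursor, took 17.0% of the NTB-GMP divisor and 6.98% of that of 4T1-GMP. Leaving it out moves every log2 ratio by -0.16, which is larger than most RP differences below. GMP markers summed to 10661 RPKM in NTB-GMP against 16326 RPKM in 4T1-GMP, with 6 of 10 higher in 4T1-GMP and 4 lower. All 12 neutrophil granule markers were higher in 4T1-GMP, and their sum was 518 RPKM in NTB-GMP against 4068 RPKM in 4T1-GMP. Monocyte and dendritic markers summed to 180 and 81.5 RPKM, with 7 of 8 tested lower. Basophil and mast cell markers summed to 455 and 188 RPKM, with all 6 lower. Stem and early progenitor markers summed to 32.6 and 18.4 RPKM, and erythroid and megakaryocyte markers to 22.3 and 6.13 RPKM, with Hba-a1 and Hbb-bs at 0 in both. Lymphoid markers summed to 206 and 350 RPKM, with Cd3g at 0 in both libraries and Pax5 and Cd3e at 0 in one. The part of these markers in the RP values was not tested. In a bulk library, fewer cells of a type and less RNA per cell cannot be told apart.

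RP mRNAs were among the most abundant transcripts of both libraries and their levels were nearly equal. They made up 17.3% of the summed RPKM in NTB-GMP and 16.8% in 4T1-GMP. The large subunit gave 9.60% and 9.29%, and the small subunit gave 7.74% and 7.47%. Of the 100 highest genes, 61 in NTB-GMP and 56 in 4T1-GMP were members. Across the 73 members other than paralogs that averaged 50 RPKM or more, log2 RPKM in the libraries correlated with a Pearson r of 0.98. These points share 2 libraries and their base composition, so r is a description. The SD of log2 RPKM across these members was 0.75 in NTB-GMP and 0.76 in 4T1-GMP. The largest difference between the libraries among these 73 was 0.32 on the same scale, that of Rplp2.

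**Figure D1:**
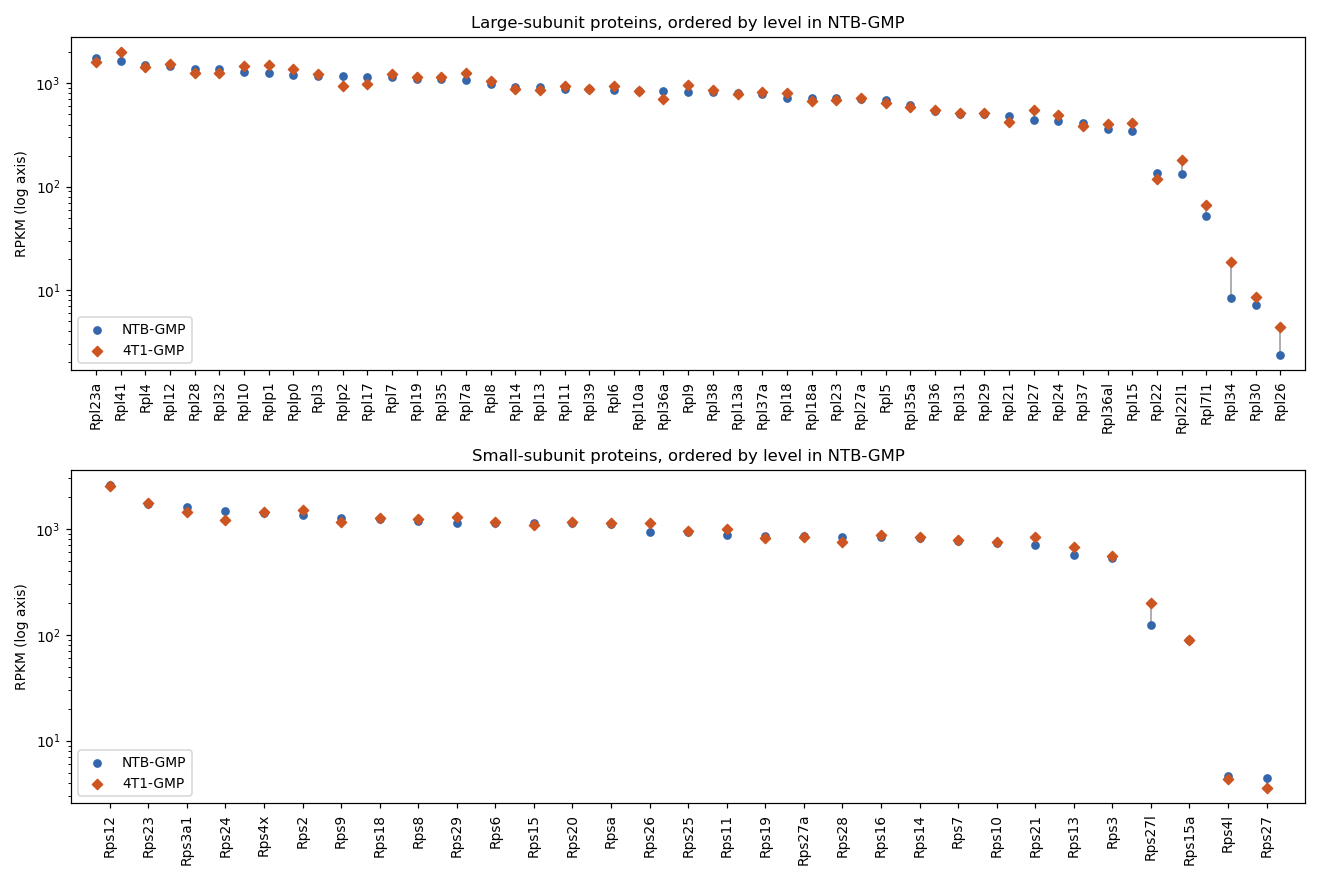
Deposited RPKM (log axis) of 80 of the 82 tested RPs in NTB-GMP (blue circles) and 4T1-GMP (orange diamonds), large subunit above and small subunit below, ordered by level in NTB-GMP, with 1 library per group. Of these, 10 lie under a mean of 250 RPKM, in both subunits, and the rest at or above it.

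The small-subunit member with the highest mean level was Rps12, a protein of the head, at 2573 RPKM in NTB-GMP against 2511 RPKM in 4T1-GMP. Rps23, which lies near the decoding center, followed at 1708 and 1735 RPKM. Rps3a1, a protein of the platform, was the next by mean level, with 1601 and 1431 RPKM. The first 2 of these differed between libraries by less than 0.04 on the log2 scale. In the large subunit, Rpl41, the smallest RP, was at 1656 RPKM in NTB-GMP against 2000 RPKM in 4T1-GMP. Rpl23a, which lines the exit of the peptide tunnel, was at 1754 and 1603 RPKM. Rpl12, at the base of the stalk, was at 1472 and 1534 RPKM. The order of Rpl41 and Rpl23a was therefore not the same in the libraries.

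The other end of the range held 10 members under a mean of 250 RPKM, of which 4 were paralogs. Rps15a was at 90.1 and 88.8 RPKM, and the annotated transcript used for it had 5179 bases. Rpl34 (8.27 and 18.4 RPKM), Rpl30 (7.22 and 8.46 RPKM), Rps27 (4.44 and 3.59 RPKM) and Rpl26 (2.35 and 4.36 RPKM) were the lowest besides the paralog Rps4l (4.59 and 4.32 RPKM). These genes shared sequence with other annotated genes. Of the 50-base words in its transcript, 98.6% for Rps27 occurred in another gene, Rps27rt. The share was 71.3% for Rpl26, 47.8% for Rpl30 and 37.9% for Rpl34, with a pseudogene as the closest match in each. Rps27rt and Rpl34-ps1 were themselves listed at 0 in both libraries. How reads with more than 1 match were counted was not given in the sources used here, and the part of shared sequence in these low values was not tested.

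Sharing was common among members of every level. The median member shared 48.8% of its 50-base words with another gene, 40 of 84 shared over 50%, and 81 shared some with a pseudogene. Across the 81 tested members with an annotated transcript, the share had a Spearman rho of 0.21 with level and 0.10 with the log2 ratio. Across the 73 members other than paralogs that averaged 50 RPKM or more, rho was 0.23 with level and 0.22 with the log2 ratio. Rps12, the most abundant RP, shared 83.6% and Rpl10 shared 92.1%, whereas Rps3, at 526 and 550 RPKM, shared 2.96%. RP values that rest on shared sequence are uncertain as to the gene they come from, in both libraries. Whether this holds to the same degree in each was not tested.

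**Figure D2:**
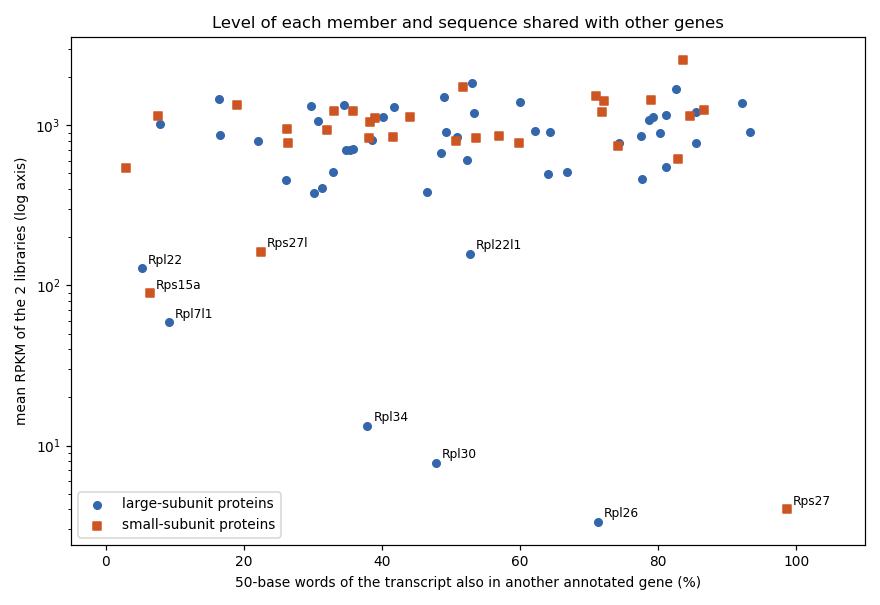
Mean RPKM of the libraries (log axis) against the percentage of each transcript's 50-base words that also occur in another annotated gene, for large-subunit (blue circles) and small-subunit RPs (orange squares), with members under 250 RPKM named. High levels occur from 2.96% to over 90% shared, and the 4 lowest named members, Rpl34, Rpl30, Rps27 and Rpl26, lie between 37.9% and 98.6%.

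The question of the comparison was whether RP mRNAs differed between GMPs of tumor-bearing and NTB mice, and whether the subunits moved together. The ratio was the difference of log2(RPKM + 0.1), 4T1-GMP minus NTB-GMP, which understates the change of low genes. The 82 members had a median log2 ratio of 0.04 with an interquartile range of -0.06 to 0.16, and 53 were higher in 4T1-GMP. All 10378 tested genes had a median of 0.05 with an interquartile range of -0.26 to 0.32, and 54.7% of them were higher. The RP median was therefore at that of all genes while the RP spread was narrower. The SD of log2 ratios across genes was 0.23 for the members and 0.72 for all genes.

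The large-subunit median was 0.06 (31 of 49 higher in 4T1-GMP) and that of the small subunit was 0.03 (22 of 33 higher), and both turned negative under quantile normalization, under TPM and once Rn45s was taken out of the divisors. The small-subunit median also turned negative with TMM scaling. Relative to the median of all tested genes, 25 of 49 large-subunit and 12 of 33 small-subunit members were higher. The medians of the subunits differed by 0.03 on the log2 scale, or 0.02 without the paralogs. Interquartile ranges across genes were -0.06 to 0.17 for the large and -0.04 to 0.06 for the small subunit.

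Few single members differed by much. At least 1.5-fold higher in 4T1-GMP were 3 of 82 members, Rpl34, Rpl26 and Rps27l, whereas 9.8% of all tested genes were. None was at least 1.5-fold lower, whereas 11.6% of all tested genes were. At a threshold of 25%, the higher library over the lower, 5 members were higher in 4T1-GMP, with Rpl22l1 and Rpl7l1 added, and 0 were lower. Of all tested genes, 25.2% were higher and 21.7% lower by this threshold. Thus, 77 of 82 members (93.9%) lay within 25%, compared with 53.1% of all tested genes. Among the 73 members other than paralogs that averaged 50 RPKM or more, all 73 did. Of 490 other genes averaging 100 RPKM or more, 47.8% lay within 25%, with a median log2 ratio of 0.29.

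The counting interval of the log2 ratio lay above 0 for 35 members, below 0 for 23 and held 0 for 24. These intervals compare the reads of 2 libraries and do not include the spread between mice.

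**Figure D3:**
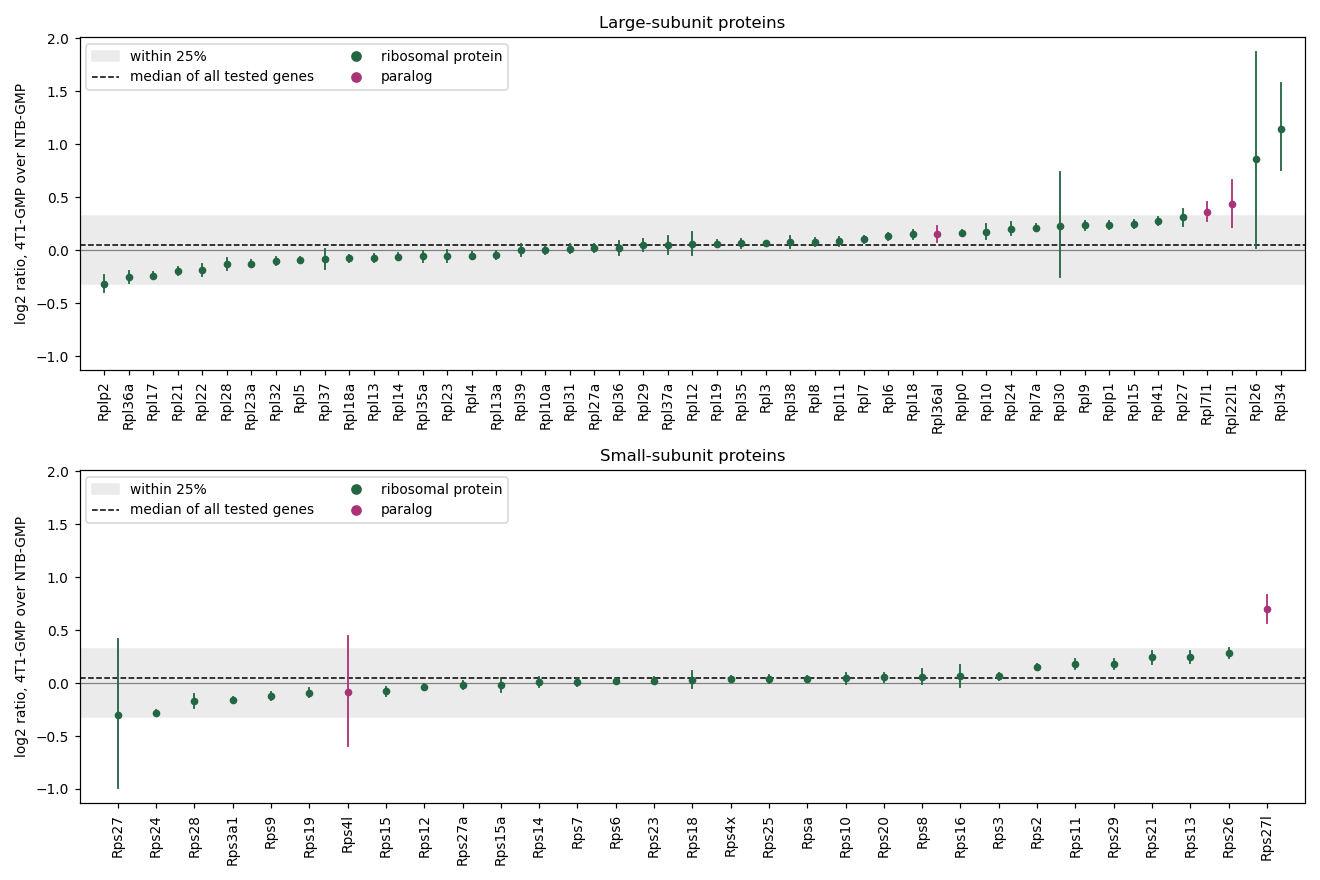
Log2 ratio of 80 tested RPs, 4T1-GMP over NTB-GMP, with 95% counting intervals as bars, for 49 large-subunit and 31 small-subunit members ordered by ratio. Green points are RPs and purple points are paralogs, the grey band marks differences within 25%, and the dashed line is the median of all tested genes (0.05). Only Rpl7l1, Rpl22l1, Rpl26, Rpl34 and Rps27l lie above the band, and no member lies below it.

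The highest ratio was that of Rpl34, a large-subunit protein encoded at chr3:130726831-130730398 on the minus strand. It was at 8.27 RPKM in NTB-GMP against 18.4 RPKM in 4T1-GMP, from at least 58 and at least 381 reads, a log2 ratio of 1.15 (interval 0.75 to 1.58). Rpl26, a tunnel exit protein mutated in some families with Diamond-Blackfan anemia, was at 2.35 and 4.36 RPKM. Its log2 ratio was 0.86 with an interval of 0.02 to 1.87, from at least 13 reads in NTB-GMP. Both members are among the 4 with very low levels and shared sequence, and Rps27, another of them, had a ratio of -0.30 with an interval of -0.99 to 0.41. Rpl30, the remaining member of the 4, had a ratio of 0.23 with an interval of -0.25 to 0.74. The intervals of Rps27 and Rpl30 held 0, so no direction can be given for either.

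Among abundant large-subunit members, Rpl27 had 444 RPKM in NTB-GMP against 550 RPKM in 4T1-GMP, a log2 ratio of 0.31 (interval 0.23 to 0.39). Rpl41 followed with 0.27 (interval 0.24 to 0.31), which became -0.12 under quantile normalization, and Rpl15 with 0.25. In the small subunit, Rps26, which lies at the mRNA exit channel, had 939 and 1144 RPKM, a ratio of 0.28 (interval 0.24 to 0.33). Rps13 (566 and 670 RPKM) and Rps21 (707 and 837 RPKM) each had a ratio of 0.24. Under quantile normalization Rps13 became -0.08. The ratios of Rpl27, Rps26 and Rps21 were above 0 under every scaling tried.

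At the low end, Rplp2 was at 1180 RPKM in NTB-GMP against 946 RPKM in 4T1-GMP, a log2 ratio of -0.32 (interval -0.40 to -0.24). Rps24, which is mutated in Diamond-Blackfan anemia, was at 1472 and 1209 RPKM, a ratio of -0.28 (interval -0.31 to -0.25). Rpl36a, near the site where spent tRNA leaves, was at 838 and 703 RPKM (-0.25), and Rpl17, at the tunnel exit, at 1159 and 981 RPKM (-0.24). These 4 were also below 0 under every scaling tried. Rpl21 (-0.20), Rpl22 (-0.19), Rps28 (-0.17), Rps3a1 (-0.16), Rps9 (-0.12) and Rps27 (-0.30), described above, made up the rest of the 5 lowest of each subunit.

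The 3 proteins of the P stalk, which recruits translation factors to the large subunit, did not share a direction. Rplp0, the base of the stalk, was at 1218 RPKM in NTB-GMP against 1365 RPKM in 4T1-GMP, a ratio of 0.16 that was near 0 with Rn45s left out. Rplp1 was at 1273 and 1500 RPKM (0.24, interval 0.19 to 0.28), and Rplp2, its partner in the stalk dimer, was lower by 0.32 as given above. Of the Rplp2 transcript, 30.7% was shared with Wdr89, and Rplp2-ps1 was listed at 0 in both libraries.

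Rpl5 and Rpl11, which carry 5S ribosomal RNA and bind Mdm2 when ribosome assembly is disturbed, were at 694 and 650 RPKM (-0.09) and at 891 and 943 RPKM (0.08). The latter became negative with Rn45s left out. Rps6, the substrate of the S6 kinases, was at 1141 and 1155 RPKM, with a ratio of 0.02 (interval -0.01 to 0.04). Rps27a, made as a fusion with ubiquitin, was at 857 and 845 RPKM (-0.02), and Rpsa, also known as the laminin receptor, at 1111 and 1144 RPKM (0.04). These members had nearly the same level in both libraries.

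The median over all members was 0.04, and that of the 3 P stalk proteins was 0.16. The 8 proteins of the peptide exit tunnel ring had a median of 0.01 on the log2 scale with 4 higher, the 14 of the small-subunit head 0.04 with 9 higher, and the 17 of its body 0.02 with 12 higher. The 19 Diamond-Blackfan anemia genes had a median of 0.04, and 12 were higher. Their highest ratios were those of Rpl26 (0.86) and Rpl27 (0.31), and their lowest those of Rps27 (-0.30) and Rps24 (-0.28).

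Paralogs of RPs, which can take the place of their parent in a ribosome or act outside it, held 3 of the 5 members beyond 25%. Of these, Rpl22l1 and Rpl7l1 were within 25% under quantile normalization (0.17 and 0.16) and with Rn45s left out (0.27 and 0.20), and Rpl7l1 also under TPM (0.28) and, just inside, TMM (0.32). Of 8 paralogs, 5 reached a mean RPKM of 1. Rps27l, a p53 target, lies at chr9:66946086-66949516 on the plus strand. It was at 123 RPKM in NTB-GMP against 200 RPKM in 4T1-GMP, a ratio of 0.70 (interval 0.57 to 0.83). Its transcript shared 22.4% of 50-base words with other genes. The ratio was under the 1.5-fold threshold at 0.45 under quantile normalization and 0.53 with Rn45s left out.

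Rpl22l1 (chr3:28805436-28807424, plus strand), a paralog known to be controlled by Rpl22, was at 134 RPKM in NTB-GMP against 181 RPKM in 4T1-GMP, a ratio of 0.44 (interval 0.22 to 0.66). Rpl22 itself (chr4:152325742-152334071, plus strand) was at 136 and 120 RPKM, a ratio of -0.19 (interval -0.24 to -0.13). The intervals of the pair did not overlap. The share of Rpl22l1 in the summed RPKM of the pair, which no scaling of a library by 1 factor can move, was 49.6% in NTB-GMP and 60.2% in 4T1-GMP. The transcripts of Rpl22l1 and Rpl22 shared 52.7% and 5.19% of their 50-base words with other genes, so the reads given to Rpl22l1 are uncertain.

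Rpl36al and Rpl36a followed the same pattern. Rpl36al was at 362 RPKM in NTB-GMP against 402 RPKM in 4T1-GMP, a ratio of 0.15 (interval 0.08 to 0.23) that was below 0 under quantile normalization and with Rn45s left out. With its parent Rpl36a at -0.25 (interval -0.31 to -0.20), the share of Rpl36al in the pair was 30.2% in NTB-GMP and 36.4% in 4T1-GMP. The transcripts of Rpl36a and Rpl36al shared 85.5% and 46.5% of their 50-base words with other genes, so the split of reads between such copies is uncertain.

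Rpl7l1, related to Rpl7 and found in assembling large subunits, was at 51.5 and 66.2 RPKM, a ratio of 0.36 (interval 0.28 to 0.45). Rpl7 had a ratio of 0.10, and the share of the paralog was 4.29% and 5.10%. Rps4l was at 4.59 and 4.32 RPKM, 0.33% and 0.30% of its pair with Rps4x. Rps27l made up 96.5% and 98.2% of its pair with Rps27, which rests on the low value of Rps27. The parents of the 3 paralogs outside the comparison had ratios of 0.06 for Rpl3, 0.17 for Rpl10 and 0.00 for Rpl39.

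**Figure D4:**
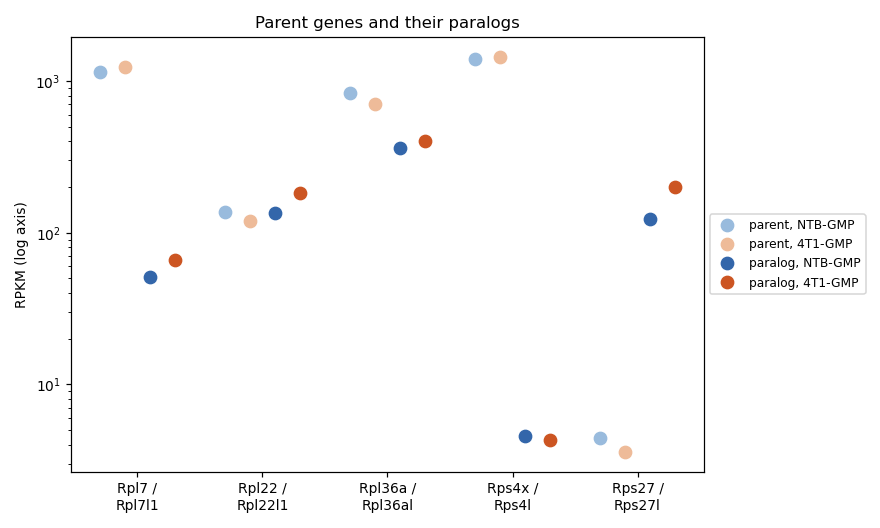
RPKM (log axis) of the 5 measured paralogs (dark points) beside their parents (light points) in NTB-GMP (blue) and 4T1-GMP (orange), 1 library each. Rpl22 and Rpl22l1 lie together in NTB-GMP (136 and 134 RPKM) and apart in 4T1-GMP (120 and 181 RPKM), and Rps27l is far above Rps27.

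RPs whose symbols the rule does not take were close to the same in both libraries. Fau, a ubiquitin-like fusion of Rps30, was at 511 and 540 RPKM (0.08), and Gnb2l1, which encodes the small-subunit scaffold Rack1, at 987 and 1015 RPKM (0.04). Both became negative with Rn45s left out.

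Members shared features of gene structure that the rule did not use. On the GRCm38 annotation, 30 of 84 members with a locus (35.7%) held a small nucleolar RNA (snoRNA) within the gene on the same strand, compared with 1.81% of 9689 tested protein-coding genes. Such snoRNAs guide modification of ribosomal RNA. The 30 hosts, which included Rplp2, Rps12 and Rpl23a, had a median of 0.01 on the log2 scale with 15 higher, and the other 52 tested members had a median of 0.05 with 38 higher. Members lay on 19 chromosomes, with the most (14) on chromosome 7.

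Other genes of the ribosome and of translation had higher medians than the RPs of the cytoplasm. Ratios also rose with level outside the members, with a median of 0.13 (65.3% higher) at 10 RPKM or more. At 100 RPKM or more this median was 0.29 (82.2% higher). Median levels in NTB-GMP were 23.5 RPKM for mitochondrial RPs, 31.3 RPKM for ribosome biogenesis factors and 121 RPKM for translation factors. Whether these lists differ from other genes of their level was not tested. Of 77 mitochondrial RPs, which form the separate ribosome of the mitochondrion, 74 were higher in 4T1-GMP, with a median log2 ratio of 0.39. Taking Rn45s out of the divisors left 59 higher. Of all tested genes, 54.7% were higher with the deposited divisors. At least 1.5-fold higher were 16, against 9.8% of all tested genes, and 0 were at least 1.5-fold lower, against 11.6%. Their ratios ran from -0.12 for Mrpl52 to 1.02 for Mrps18c (35.6 and 72.3 RPKM), and their summed RPKM was 2082 in NTB-GMP and 2731 in 4T1-GMP. The median was 0.35 above that of cytoplasmic RPs, and it stayed above 0 under every scaling tried, from 0.23 with Rn45s left out to 0.35 with TMM.

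Ribosome biogenesis factors, which process ribosomal RNA and assemble subunits in the nucleolus, had a median of 0.22 with 56 of 62 higher. With Rn45s left out, the median was 0.05 with 39 higher, and under quantile normalization it was 0.08 with 41 higher. They ran from Ddx10, an RNA helicase (-0.10), to Pno1, an assembly factor of the small subunit (0.94, at 21.2 and 41.0 RPKM). Translation factors had a median of 0.20 with 32 of 43 higher, or -0.04 under quantile normalization. Their lowest was Pabpc1, the poly(A)-binding protein, at 782 and 482 RPKM (-0.70), and their highest Eif2s1, an initiation factor subunit (0.67). RNA polymerase I, which transcribes the ribosomal RNA precursor, had 10 of 15 genes higher, with a median of 0.09. It ran from Taf1a (-0.46) to Polr1e (0.48), and 4 of 15 were higher with Rn45s left out.

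Genes that control TOP mRNAs had a median of -0.09, with 6 of 12 higher. Eif4ebp1, an inhibitor of cap-dependent initiation downstream of mTOR, had the highest ratio (0.40), and Tsc1, an inhibitor of mTOR, had the lowest (-0.55). Rn45s itself was at 29065 RPKM in NTB-GMP against 11960 RPKM in 4T1-GMP, a ratio of -1.28. Whether and how ribosomal RNA was removed from these libraries is not given in the sources used here.

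**Figure D5:**
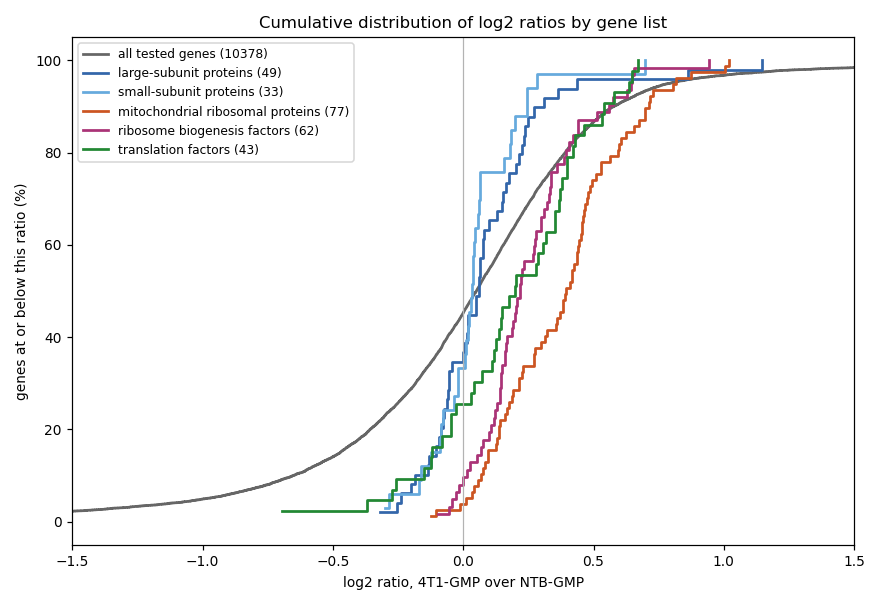
Cumulative percentage of genes at or below each log2 ratio, 4T1-GMP over NTB-GMP, for the large-subunit and small-subunit RPs, mitochondrial RPs, ribosome biogenesis factors, translation factors and all tested genes, with the number of genes in the key. The RP curves rise steeply around 0 (medians 0.06 and 0.03), and that of mitochondrial RPs lies to the right (median 0.39).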

How the data were processed

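GMP RNA was sequenced in 1 library from NTB and 1 from 4T1-bearing mice. The authors deposited RPKM, reads divided by gene length and library size, for each gene symbol. The submitters' processing notes name CASAVA 1.8.2, cutadapt 1.2.1, TopHat2 2.0.13, Picard 1.97, HTSeq 0.6.1, edgeR 3.12.1 and the mm10 build, with no settings. Whole reads were recovered from ratios of the deposited RPKM, for 14833 of 14833 genes above 0 (at least 9486697 and 26353075 reads). The divisors were not whole numbers, so they hold a scaling besides a read total. On simulated data with 13266 genes, the read ratio was recovered for 100% and both counts exactly for 83.9%, the rest being too low by a common factor. Recovered reads are therefore lower bounds. The intervals are at their widest with respect to this factor, but they do not allow for reads that are not independent.

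Log2 ratios used a pseudocount of 0.1, over genes averaging at least 1 RPKM. Ratios past 1.5-fold were counted, with no p-value, since there were no replicates. Sequence sharing was the percentage of 50-base words of a coding GENCODE transcript of each member found in another gene. That transcript was linked to RefSeq where possible and was the nearest in length to a multiple of the recovered gene length. Promoters were those of RefSeq GRCm38.p6. Named genes were the 5 highest and 5 lowest ratios and the 3 highest and 3 lowest levels of each subunit, paralogs with their parents, the stalk, 5S, Rps6, Rps27a and Rpsa members, the extremes of each list, Rn45s, Fau and Gnb2l1, of which some are not reported here; the remaining genes named were chosen after their values were seen. Members and lists were chosen with earlier results of these data known. Alternatives were pseudocounts of 1 and 0.01, other minimum levels, quantile normalization, TPM, TMM, library sizes without Rn45s, thinned reads, other thresholds and subsets of members. Computations used Python 3.11.15, numpy 2.4.6 and scipy 1.17.1.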

Additional observations from a re-analysis of the deposited data

How the results depend on the processing

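The large-subunit median log2 ratio of 0.06 was negative under quantile normalization (-0.11), TPM (-0.021) and library sizes without Rn45s (-0.10), and the small-subunit median of 0.03 was -0.10, -0.048 and -0.13 under the same settings and -0.0091 with TMM. The median of all tested genes moved with them, to -0.11 without Rn45s, where members lay 0.01 below it. Under quantile normalization, members lay 0.10 below it. The count of members at least 1.5-fold higher (3) was 5 at a threshold of 25%, 1 at 2-fold, 0 without members sharing at least 10% of their 50-base words and 1 without members under a mean of 50 RPKM. These last 2 settings were chosen after seeing the data, and both remove Rpl34 and Rpl26, the first Rps27l too. The count at least 1.5-fold lower (0) was 1 under quantile normalization, namely Rpl23a (-0.63). Members higher in 4T1-GMP numbered 53 of 82, 19 under quantile normalization, 27 under TPM, 20 without Rn45s, 40 with TMM and 54 with 4T1-GMP reads thinned. For 55 named genes, 244 of 385 values stayed within the counting interval and 43 had the other sign. No paired analysis was possible because the groups held 1 library each, which also left no replicate to omit. Depth limits Rpl26, Rps27, Rps4l, Rpl30 and Rpl34, for each of which the lower bound on reads in NTB-GMP was under 100.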

Other observations

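Of 62 genes outside the members averaging 500 RPKM or more, 82.3% were higher in 4T1-GMP, against 64.6% of tested members, with a median log2 ratio of 0.37, and 33.9% lay within 25%. The elongation factor Eef1a1, whose mRNA also carries a TOP tract, was at 5595 RPKM in NTB-GMP against 5490 RPKM in 4T1-GMP (-0.03), and Eef2 was at 871 and 843 RPKM (-0.05). Npm1, a nucleolar chaperone of ribosome assembly, was at 897 and 1173 RPKM (0.39), and Myc, a transcription factor that drives ribosome production, at 138 and 108 RPKM (-0.36). Mtor (0.01) and Larp1 (0.02) were nearly level. These 6 genes were chosen after their values were seen.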
